A study of Mus musculus with 36 samples.

Results

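The change of the radiation response of mouse cardiac fibroblasts between an acute and a late time was measured in 8 of the 36 libraries of the series, which are all its fibroblast libraries of 6 hours and of 28 days. At each of these times, 2 libraries came from sham hearts and 2 from hearts given a single fraction of 12 Gy with a small animal irradiator. All animals were wild type (WT) mice of the strain C57Bl6J, and each time had its own sham libraries. The quantity followed here is the interaction, that is irradiated minus sham at 28 days less irradiated minus sham at 6 hours, on a log2 scale. A negative interaction means that the irradiated libraries stood lower against their sham libraries at 28 days than at 6 hours. The 4 fibroblast libraries of 7 days (2 sham, 2 irradiated) entered the fit to estimate the spread, played no part in the interaction, and serve as a time between. The age of the mice, the way the fibroblasts were isolated, the hour of day at which hearts were taken and whether the 2 libraries of a group come from separate animals are not stated in the labels, so the p-values measure the spread between these libraries, which may be technical.

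Cardiac fibroblasts make and remodel the collagen matrix between heart muscle cells. Ionizing radiation breaks DNA, and p53, stabilized by the damage signal, switches on genes that stop the cell cycle, such as Cdkn1a, and its own inhibitor Mdm2, which turns the signal down again. Irradiated cells can also signal through NF-kB, which drives inflammatory genes, and through interferons, which drive antiviral genes, and late fibrosis of the irradiated heart is a known outcome in patients and animals.

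The 8 libraries held 25.63 to 31.94 M reads on the rows used, and 16998 to 17480 genes had at least 1 read. Levels are given in CPM, the count of a gene relative to the TMM-scaled total of its library, and differences are log2 fold changes with their standard error from edgeR's quasi-likelihood test, in which a gene was called at a Benjamini-Hochberg adjusted p under 0.05. Fibroblast markers dominated every library, with 70957 to 89368 CPM summed over 18 genes. The sum was 83609 and 78816 CPM in sham and 72971 and 70957 CPM in irradiated libraries of 6 hours. At 28 days it was 89368 and 86767 CPM in sham and 82743 and 81688 CPM in irradiated libraries. Of the 18 genes, 6 fell and none rose at 6 hours, and 3 fell and 2 rose at 28 days. The fibroblast lineage factor Tcf21 stood between 130 and 164 CPM in all 8 libraries. Markers of lymphocytes and neutrophils were at or near 0, with the pan-leukocyte gene Ptprc between 0.039 and 0.407 CPM, Cd3e between 0 and 0.157 CPM and S100a8 between 0 and 0.102 CPM. Macrophage genes were low but present, with Csf1r between 22 and 37.9 CPM and Cd68 between 2.77 and 7.74 CPM, and the summed macrophage and monocyte markers were 45.2 and 54.7 CPM in sham and 64.8 and 68.2 CPM in irradiated libraries of 6 hours, against 31.3 to 34.9 CPM at 28 days. Summed endothelial markers (20 genes) stood between 1393 and 2002 CPM, but the endothelial cadherin gene Cdh5 was 46.2 CPM in the second irradiated library of 6 hours and 1.6 to 7.41 CPM in the other 7. Pecam1, another endothelial marker, was 52.6 CPM in that library and 8.96 to 16 CPM in the other 7. The median effect of the list at 6 hours was 1.29, and -0.55 without that library. Summed mesothelial markers (9 of 10 genes measured) were 2298 and 2645 CPM in sham and 2717 and 3136 CPM in irradiated libraries of 6 hours, against 1588 and 1753 CPM in sham and 2033 and 2035 CPM in irradiated libraries of 28 days. Summed erythroid markers (7 genes) were 1160 and 1760 CPM in sham libraries of 28 days and 250 to 861 CPM in the other 6. Since these are bulk libraries, fewer cells of a type and less RNA per cell cannot be told apart in any level given here.

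The radiation response of the fibroblasts was broad at 6 hours and much narrower at 28 days, and most of the change between the times was loss of the early response. Of 14998 genes tested, 3693 (24.6%) were called at 6 hours, 1843 higher and 1850 lower (12.3% each). At 28 days 494 (3.29%) were called, 372 higher (2.48%) and 122 lower (0.813%). The interaction itself was called for 1525 genes (10.2%), of which 785 (5.23%) were higher and 740 (4.93%) lower at 28 days than at 6 hours. Only 298 genes were called at both times. The median effect over all genes tested was between -0.005 and -0.002 at each time and in the interaction.

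The 1525 genes were sorted by their calls at each time. The response had faded in 1269 of them (83.2%): 1174 were called at 6 hours and no longer at 28 days, and 95 were called at both times with the same sign but smaller at 28 days. It appeared in 103 genes, called at 28 days and not at 6 hours, and 92 of these were higher after radiation. It grew in 11 genes called with the same sign at both times and larger at 28 days. It reversed in 42 genes, called at both times with opposite signs, 36 of them lower at 6 hours and higher at 28 days and 6 the other way. A further 100 genes fell in none of these classes, since they were called at neither time in either direction. Apart from the 1525, 150 genes were called with the same sign at both times without a call in the interaction. These counts moved with single libraries: without the first or the second sham library of 28 days 868 and 919 interactions were called, without the second irradiated library of 28 days 935, and without the second irradiated library of 6 hours 1028. Reversals numbered 21 without the first sham library of 28 days, 25 without the second, 26 and 23 without the first and the second irradiated library of 6 hours, and 28 without the second irradiated library of 28 days; appearances numbered 53, 50 and 63 without the first sham, the second sham and the second irradiated library of 28 days. No gene of the 1525 that was also called in another fit changed the sign of its interaction there. The fits share libraries and only genes called in both were compared, so a change of sign could hardly occur.

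**Figure D1:**
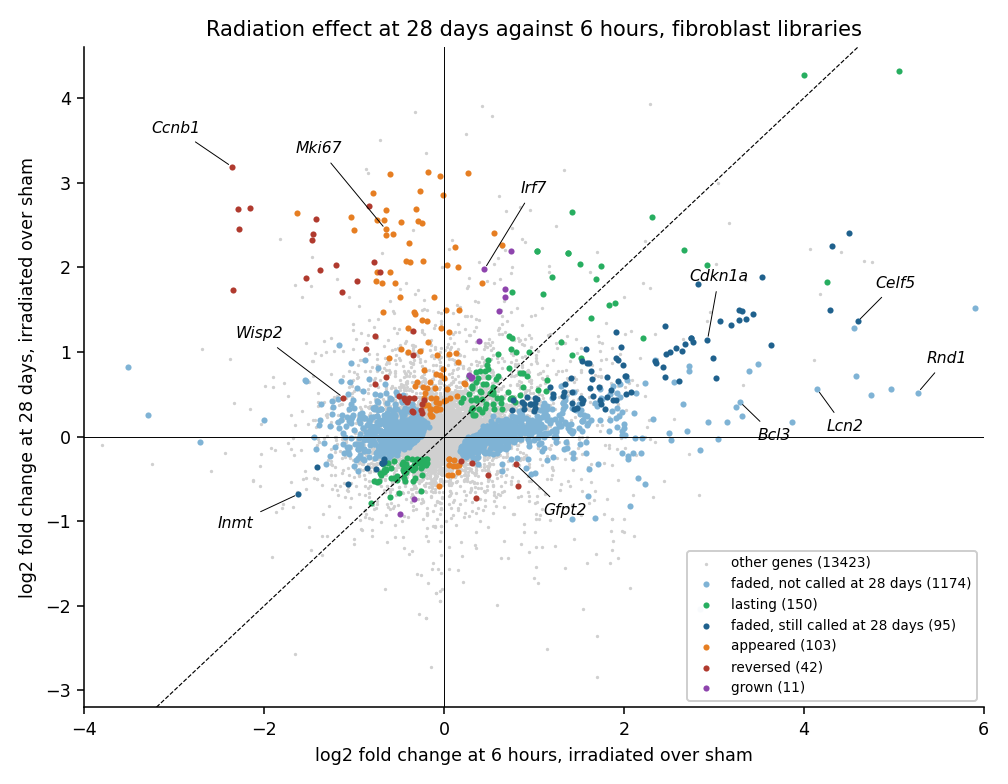
Log2 fold change of irradiated over sham at 6 hours (horizontal axis) and at 28 days (vertical axis) for the genes tested, coloured by class; the dashed line marks equal effects, and 9 genes lie outside the axes. Faded genes lie along the horizontal axis, Mki67 and Ccnb1 lie high at 28 days with effects of -0.65 and -2.36 at 6 hours, and Gfpt2 and Wisp2 lie in the quadrants of opposite sign.

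Of the 28 gene lists, that of p53 targets held most of the genes that faded and stayed called at 28 days. It held 19 of these 95 genes. Of 34 listed p53 targets, 29 rose at 6 hours, 21 rose at 7 days (1.51% of all genes rose and 1.84% were called there) and 21 rose at 28 days, with median effects of 1.87, 0.71 and 0.61. The interaction was lower for 26 and higher for 1, with a median of -1.13. By class, 19 had faded and were still called at 28 days, 7 had faded and were no longer called, and 1 was called at neither time. Cdkn1a (chr17:29090979-29100722, GRCm38.p6), which encodes the cell cycle inhibitor p21, stood at 161 and 151 CPM in sham and at 1196 and 1187 CPM in irradiated libraries of 6 hours. At 28 days it stood at 236 and 201 CPM in sham and at 491 and 475 CPM in irradiated libraries. Irradiated and sham libraries did not overlap at either time, and the irradiated level had fallen while the sham level was higher. Its effect was 2.93 ± 0.08 at 6 hours (7.62-fold, adjusted p = 1.94e-11), 1.48 ± 0.08 at 7 days and 1.14 ± 0.08 at 28 days (2.21-fold, adjusted p = 1.4e-06), and the interaction was -1.79 ± 0.11 (adjusted p = 3.89e-07).

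Ccng1, the gene of cyclin G1, was 115 and 136 CPM in sham against 783 and 751 CPM in irradiated libraries at 6 hours, and 118 and 126 CPM against 192 and 194 CPM at 28 days. Irradiated and sham libraries were apart at both times, and its effect fell from 2.61 ± 0.08 to 0.66 ± 0.08 (interaction -1.95 ± 0.11, adjusted p = 2.41e-07). Mdm2, which encodes the ligase that degrades p53, was 48.2 and 49.7 CPM against 214 and 200 CPM at 6 hours and 46.2 and 45 CPM against 61.3 and 70.2 CPM at 28 days. Its effect went from 2.08 ± 0.09 to 0.53 ± 0.09, and the 28 day call was lost without the second sham library of that time (adjusted p = 0.0548). Other members kept a larger remainder. Sesn2, a stress-induced regulator of growth signalling, had effects of 3.31 ± 0.08 and 1.48 ± 0.09, and Gdf15, a secreted stress hormone, 3.19 ± 0.16 and 1.32 ± 0.17. Tnfrsf10b, a death receptor, had effects of 3.44 ± 0.13 and 1.45 ± 0.15. The single listed target with a positive interaction, Sesn1, was lower after radiation at 6 hours (-0.96) and its interaction was 0.81; it was named after its values were seen.

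Among genes still called at 28 days with a mean of at least 5 CPM, the largest fading was that of Celf5, which encodes an RNA-binding splicing factor. It was 1.1 and 0.992 CPM in sham and 26.6 and 24.1 CPM in irradiated libraries at 6 hours, and 1.16 and 1.66 CPM against 3.54 and 3.8 CPM at 28 days. The groups did not overlap at either time. Its effect was 4.6 ± 0.16 (24.2-fold) at 6 hours, 1.09 ± 0.18 at 7 days and 1.36 ± 0.18 at 28 days. The interaction was -3.24 ± 0.26 (adjusted p = 3.76e-06). Dcxr, a carbonyl reductase gene, went from 4.29 ± 0.13 to 1.5 ± 0.14. A pair of mitosis-associated genes, Ckap2 and Gtse1, had larger effects at 28 days than at 7 days. Ckap2, a microtubule-associated gene, went from 4.50 ± 0.15 at 6 hours through 0.79 ± 0.17 at 7 days to 2.41 ± 0.17 at 28 days, and Gtse1, whose product binds p53, 4.32 ± 0.16, 1.37 ± 0.18 and 2.25 ± 0.18. In both, the 28 day effect exceeded the 7 day effect by more than their standard errors. The effect of Celf5 was also larger at 28 days than at 7 days, by less than in this pair. For Ccng1 the order was the opposite. The difference between 7 and 28 days was not tested. None of the interactions in this paragraph lost its call when any one library was left out.

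The 7 day effects did not define the classes. They followed the split between faded genes still called at 28 days and those no longer called. The former also had the larger effects at 6 hours. The 7 day libraries shared in the spread and the filter behind every call, so their calls are no independent check of the split. Of the 86 genes that were higher at both times and faded, all 86 had a positive effect at 7 days and 66 (76.7%) were called there, with a median of 0.68 beside 1.89 at 6 hours and 0.69 at 28 days. Of the 592 genes that were higher at 6 hours and not called at 28 days, 40 (6.93% with the 1 called lower) were called higher at 7 days. Their median was 0.08 at 7 days, beside 0.68 at 6 hours. Of the 582 that were lower at 6 hours and not called at 28 days, 4 were called higher and 1 lower at 7 days, with a median of 0.00. Of the 92 genes that appeared as higher, 9 were already called higher at 7 days, with a median of 0.02 beside 1.25 at 28 days. The medians at 6 hours and 28 days follow from how the classes were made.

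**Figure D2:**
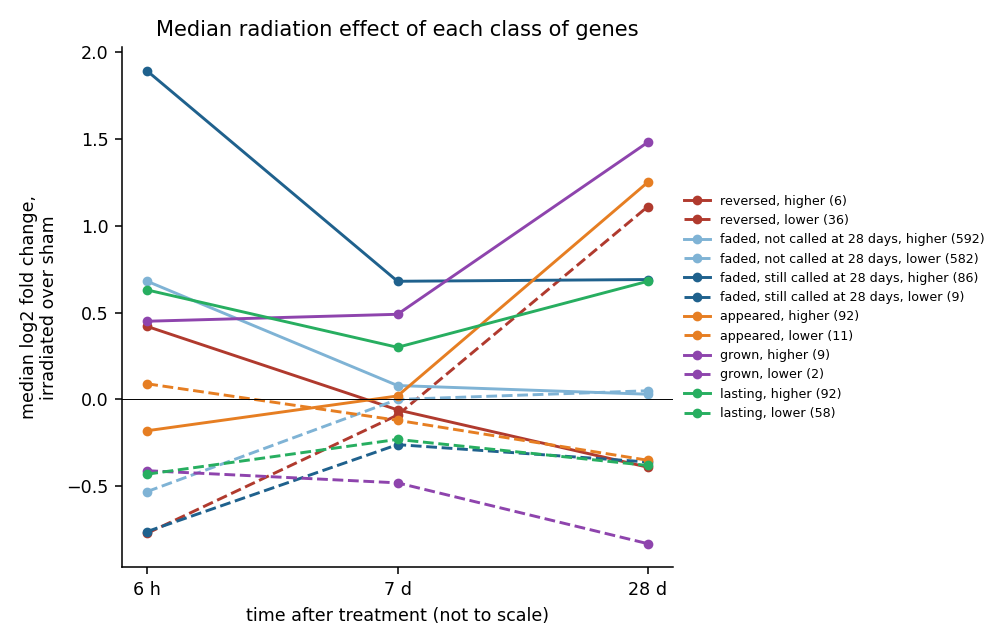
Median log2 fold change of irradiated over sham at 6 hours, 7 days and 28 days for each class of genes (solid lines, higher at the time that defines the class; dashed lines, lower). Genes that faded but stayed called held a median of 0.68 at 7 days, while genes that appeared as higher at 28 days had a median of 0.02 at 7 days.

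Most NF-kB, acute phase and cytokine genes that rose at 6 hours were not called at 28 days. Of 16 listed NF-kB subunits and regulators, 12 rose at 6 hours, none passed the test at 7 days and 3 rose at 28 days, with medians of 0.68, 0.11 and 0.21; 7 had a negative interaction and none a positive one. Leaving out the first sham library of 28 days turned the 7 into 4, and they were 2 in a fit of all 36 libraries. The 3 that rose at 28 days became 0 without the second sham library of that time, 1 without any other library of that time and 0 in the fit of all 36 libraries. Of 19 acute phase and complement genes, 11 rose and 1 fell at 6 hours, and 8 had a negative and 1 a positive interaction; the 8 became 4 without either sham library of 28 days, and in the fit of all 36 libraries 6 rose at 6 hours and 3 had a negative interaction. At 28 days 2 of these acute phase and complement genes rose and 1 fell. Of 20 inflammatory cytokines and chemokines, 11 rose at 6 hours, 3 rose and 2 fell at 28 days, and 4 had a negative interaction. The rest of the 20 had no called interaction, so a change between the times is not shown for them. In the fit of all 36 libraries, which tested 22, 4 rose at 6 hours and 2 had a negative interaction. At 6 hours the summed mesothelial markers also rose in irradiated libraries (2717 and 3136 CPM against 2298 and 2645 CPM). The list did not rise as a whole: of its 9 genes tested, 4 rose and 2 fell, with a median effect of 0.25. The summed macrophage and monocyte markers rose too, to 64.8 and 68.2 CPM against 45.2 and 54.7 CPM in sham. Of the 10 macrophage and monocyte genes tested, only Cd14 was called at 6 hours (2.19 ± 0.16), and the median effect was -0.1. Cd14 went from 3.94 and 3.11 CPM in sham to 15.3 and 16.8 CPM in irradiated libraries. The part of mesothelial cells or macrophages in the NF-kB, acute phase and cytokine genes was not tested.

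Rnd1, which encodes an atypical small GTPase that loosens the actin cytoskeleton, had the largest interaction among faded genes with a mean of at least 5 CPM. It was 3.18 and 4.41 CPM in sham and 120 and 175 CPM in irradiated libraries at 6 hours, 2.66 and 3.53 CPM against 4.28 and 4.59 CPM at 7 days, and 4.43 and 3.25 CPM against 6.23 and 4.66 CPM at 28 days. The irradiated libraries stood far above the sham libraries at 6 hours and just above them at the later times. Its effect was 5.27 ± 0.21 at 6 hours (38.7-fold, adjusted p = 2.76e-10) and 0.52 ± 0.26 at 28 days (adjusted p = 0.395), and the interaction was -4.75 ± 0.35 (adjusted p = 1.55e-06). Bcl3, which encodes a nuclear IkB protein that binds NF-kB dimers, was 11 and 10.2 CPM against 92.9 and 114 CPM at 6 hours and 10.9 and 9.93 CPM against 15.1 and 12.5 CPM at 28 days. Its effect went from 3.29 ± 0.14 to 0.41 ± 0.15 (interaction -2.88 ± 0.21, adjusted p = 1.55e-06). Icam1, the leukocyte adhesion molecule, was 105 and 92.1 CPM against 345 and 375 CPM at 6 hours and 119 and 104 CPM against 146 and 127 CPM at 28 days. Its effect went from 1.87 ± 0.09 to 0.30 ± 0.09, the latter with an adjusted p of 0.118, although both irradiated libraries still stood above both sham libraries.

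Lcn2, an iron-scavenging acute phase protein, was 1.3 and 1.51 CPM against 22.4 and 27.4 CPM at 6 hours and 1.28 and 0.584 CPM against 1.12 and 1.54 CPM at 28 days, where the groups overlapped. Its interaction of -3.59 ± 0.76 (adjusted p = 0.00788) was lost without the first sham library of 28 days (adjusted p = 0.119). Saa3, a serum amyloid gene, behaved alike, with an effect of 4.56 ± 0.40 at 6 hours and an interaction of -3.28 ± 0.73 that was lost without the first or the second sham library of 28 days (adjusted p = 0.0614 and 0.0575). Has1, a hyaluronan synthase, rose from 61.7 and 47.4 CPM to 319 and 388 CPM at 6 hours, and stood at 57.8 and 38.6 CPM in sham and 60.6 and 39.3 CPM in irradiated libraries of 28 days. Its groups overlapped at 28 days, and the interaction was -2.64 ± 0.34 (adjusted p = 0.000193). The metallothionein gene Mt2, the transglutaminase gene Tgm1, the amino acid transporter gene Slc6a14 and the ubiquitin ligase gene Neurl3 had interactions of -2.46 ± 0.37, -2.62 ± 0.33, -3.07 ± 0.24 and -2.99 ± 0.29, and none was called at 28 days. Tnfaip3, which encodes a brake on NF-kB, had an interaction of -1.03 ± 0.17, and Nfkb2, an NF-kB subunit, of -0.57 ± 0.09. Nfkb2 remained called at 28 days (0.39 ± 0.07), a call that was lost without the second sham library of that time (adjusted p = 0.0948).

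Several early inflammatory genes did not pass the test of the interaction. Il6 had effects of 0.40 ± 0.13 and -0.12 ± 0.13 at 6 hours and 28 days and an interaction of -0.52 ± 0.18 (adjusted p = 0.0792). Timp1, an inhibitor of metalloproteinases, had 1.19 ± 0.16 and 0.53 ± 0.16 (interaction adjusted p = 0.0801). Ccl2, the monocyte chemokine, was called at both times, with 1.42 ± 0.15 and 0.96 ± 0.15 (interaction adjusted p = 0.205), and its 28 day call was lost without the second sham library of 28 days (adjusted p = 0.0619). Fos, an immediate-early gene, was not called at either time (-0.03 ± 0.14 and -0.10 ± 0.14).

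Genes of mitosis and cytokinesis made up the most uniform late group. Of 30 listed genes, 28 rose at 28 days and 28 had a positive interaction, with medians of 1.96 and 2.79; the exceptions in the interaction were Aurka and Ttk, named because they are the 2 members outside the count. At 6 hours 9 fell and none rose, with a median of -0.68, and at 7 days none passed the test, with a median of -0.22. The list thus held 9 of the reversals and 19 of the appearances. The mean log2(CPM + 1) over the list was 1.44 and 1.81 in sham and 1.25 and 1.28 in irradiated libraries of 6 hours. It was 1.81 and 1.71 against 1.64 and 1.58 at 7 days, and 1.40 and 1.51 against 2.84 and 2.86 at 28 days. Sham and irradiated libraries did not overlap at any of the times, and the order turned between 7 and 28 days. The count at 28 days was 22 to 28 when 1 library was left out, and that of the interaction 25 to 29, but the 9 that fell at 6 hours were 15 without the first sham library of 6 hours, 3 without the second, 4 without either irradiated library of that time, and 5 in a fit of all 36 libraries. Levels were low: with a minimum mean of 5 CPM 7 of the genes were tested, and all 7 had a positive interaction. Of 25 DNA replication genes 2 rose and 3 fell at 6 hours, 3 rose at 28 days, and 3 had a positive and 1 a negative interaction, with medians of 0.00, 0.20 and 0.37. Without the first sham library of 28 days 1 rose at that time and none had an interaction in either direction, and without the second sham library of 6 hours none fell at 6 hours; 1 positive interaction was left without the second irradiated library of 28 days, the first irradiated or the first sham library of 6 hours, and in the fit of all 36 libraries.

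Promoters of this list are shown for 3 members, since the CCAAT box and the element TTTGAA, known as the cell cycle gene homology region, are textbook elements of genes expressed in mitosis. The windows are the 250 bases before the transcript start in the RefSeq annotation of GRCm38.p6, 5′ to 3′ on the strand of the gene, with CCAAT or TTTGAA on either strand in capitals; no motifs overlapped. They are Top2a at chr11:99024190-99024439, minus strand, Mki67 at chr7:135716380-135716629, minus strand, and Ccnb1 at chr13:100786487-100786736, minus strand.
Top2a: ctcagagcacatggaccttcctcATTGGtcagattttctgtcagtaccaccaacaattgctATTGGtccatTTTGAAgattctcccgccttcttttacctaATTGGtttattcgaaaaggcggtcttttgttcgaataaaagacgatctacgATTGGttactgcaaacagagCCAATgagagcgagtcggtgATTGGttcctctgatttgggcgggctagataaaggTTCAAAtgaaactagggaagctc
Mki67: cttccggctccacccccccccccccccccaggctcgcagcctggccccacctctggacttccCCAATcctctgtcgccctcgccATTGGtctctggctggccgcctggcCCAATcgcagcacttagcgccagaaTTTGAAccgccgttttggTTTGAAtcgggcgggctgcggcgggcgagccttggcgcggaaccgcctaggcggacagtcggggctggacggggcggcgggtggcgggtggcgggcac
Ccnb1: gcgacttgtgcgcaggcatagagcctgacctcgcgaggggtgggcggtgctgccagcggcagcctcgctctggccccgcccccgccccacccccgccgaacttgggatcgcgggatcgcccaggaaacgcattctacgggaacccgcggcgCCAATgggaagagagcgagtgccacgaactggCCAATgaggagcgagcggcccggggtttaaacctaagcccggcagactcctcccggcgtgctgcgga
Among 28 windows of 26 genes of the list, 25 (89.3%) held CCAAT and 10 (35.7%) held TTTGAA, while 33.8% and 16.0% of all 32851 promoter windows did. The Top2a window held 6 CCAAT and 2 TTTGAA matches, that of Mki67 3 and 2, and that of Ccnb1 2 and 0. A match describes the letters and does not show that a factor binds there.

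Mki67, the proliferation marker, was 3.42 and 5.82 CPM in sham and 2.96 and 2.94 CPM in irradiated libraries at 6 hours, and 3.43 and 3.47 CPM against 16.1 and 21.6 CPM at 28 days. Irradiated libraries stood below both sham libraries at 6 hours and far above them at 28 days. Its effects were -0.65 ± 0.24 (adjusted p = 0.0624) and 2.45 ± 0.21 (5.45-fold, adjusted p = 1.03e-05), and the interaction was 3.09 ± 0.32 (adjusted p = 3.07e-05). Top2a, the topoisomerase that untangles chromosomes before they separate, was 3.52 and 7.94 CPM against 4.02 and 3.67 CPM at 6 hours, where the groups overlapped, and 4.51 and 5.39 CPM against 25.7 and 26.7 CPM at 28 days. Its interaction was 2.97 ± 0.35 (adjusted p = 8.95e-05). Ccnb1, the cyclin that starts mitosis, was 1.3 and 1.81 CPM against 0.374 and 0.218 CPM at 6 hours and 0.559 and 0.747 CPM against 6.41 and 5.66 CPM at 28 days. These levels rest on 38 and 53 reads in sham and 12 and 6 reads in irradiated libraries at 6 hours, and on 14 and 23 reads against 183 and 158 reads at 28 days. Here the groups were apart at both times, and the direction changed: the effect was -2.36 ± 0.35 (adjusted p = 0.000214) and then 3.19 ± 0.28 (9.1-fold, adjusted p = 1.03e-05), with an interaction of 5.54 ± 0.44 (adjusted p = 3.31e-06). The sham level itself was lower at 28 days than at 6 hours (-1.23 ± 0.31, adjusted p = 0.0351).

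The cytokinesis genes Anln, Prc1 and Racgap1 also reversed. Anln, which encodes the scaffold anillin, had effects of -0.77 ± 0.16 and 1.19 ± 0.15 and kept both calls with any one library left out. Prc1, a bundler of spindle microtubules, had -0.78 ± 0.23 and 2.06 ± 0.20, and Racgap1, a regulator of the cleavage furrow, -0.71 ± 0.18 and 1.94 ± 0.16. The 6 hour call of Prc1 was lost without the second sham library (adjusted p = 0.35) or the first or second irradiated library of that time (adjusted p = 0.152 and 0.0503). That of Racgap1 was lost without the first sham (adjusted p = 0.0726) or the first irradiated library (adjusted p = 0.0808). Tpx2, a spindle assembly factor, appeared, with -0.55 ± 0.20 (adjusted p = 0.0546) and 1.81 ± 0.17.

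**Figure D3:**
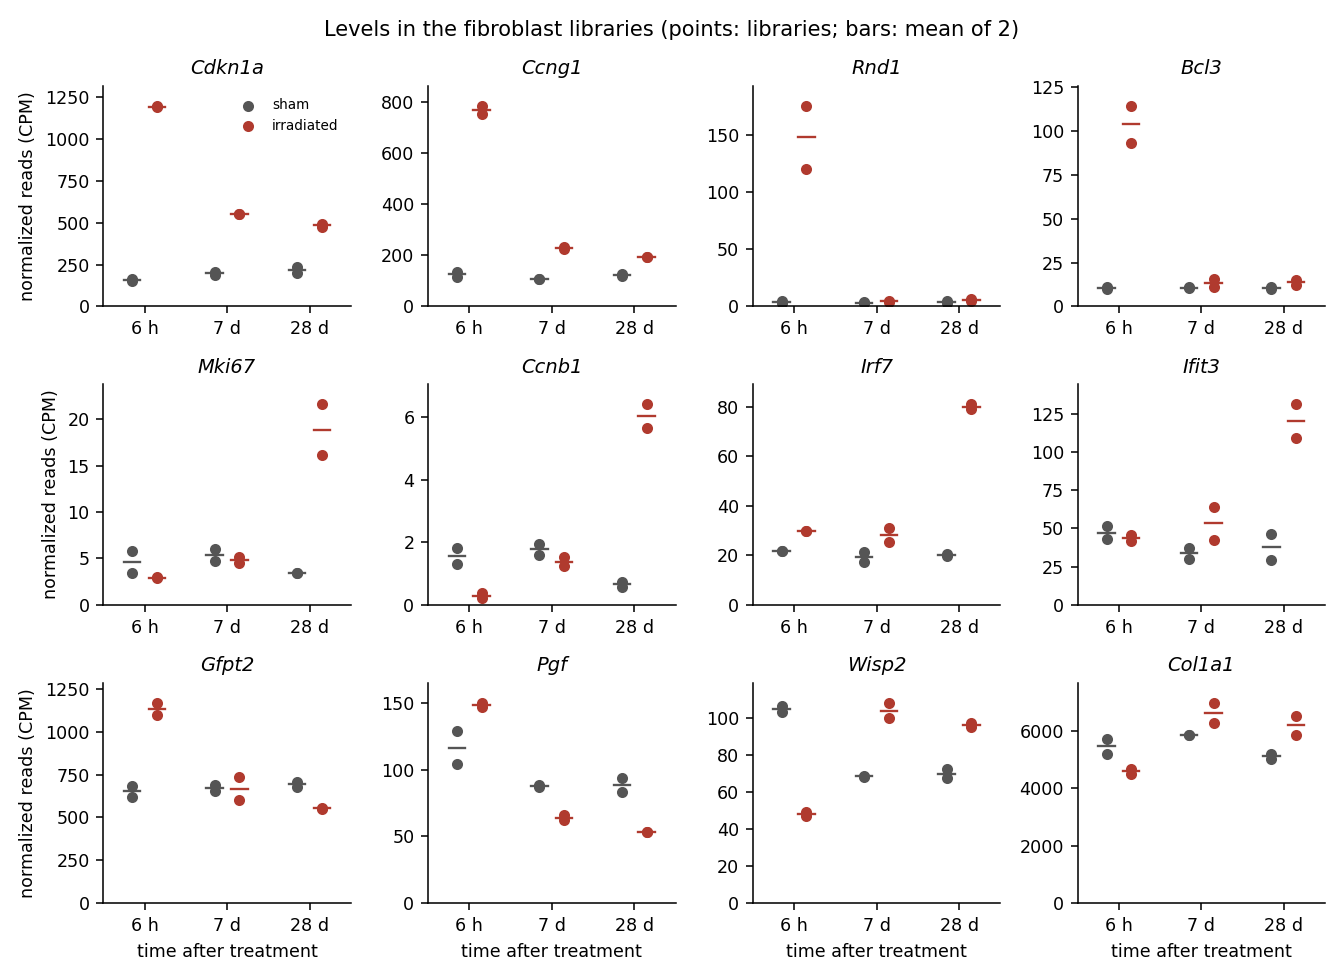
CPM in each of the 12 fibroblast libraries at 6 hours, 7 days and 28 days for 12 genes (grey points, sham; red points, irradiated; bars, mean of the 2 libraries). Cdkn1a and Ccng1 fall from 1196 and 783 CPM in an irradiated library of 6 hours but stay above sham, Rnd1 and Bcl3 return to near the sham level, and Mki67 and Ccnb1 rise above sham at 28 days alone among the 3 times.

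Many interferon-stimulated genes rose at both times, and more of them at 28 days. Of 40 listed genes, 26 rose and 2 fell at 6 hours, 9 rose at 7 days and 37 rose at 28 days, with medians of 0.55, 0.28 and 0.89. In the interaction 14 were higher and 4 lower, with a median of 0.42, and 17 were called at both times with the same sign and not in the interaction. The 14 became 8 without the first sham library of 28 days, 9 without the second sham library of 6 hours and 7 in a fit of all 36 libraries, in which 12 rose at 6 hours and 20 at 28 days. Sorted by class, 7 appeared, 5 grew, 2 reversed and 4 faded.

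Promoters are shown for 3 genes that were higher at 28 days and for Gbp5, which faded, with the core of the interferon response element on either strand in capitals, spelled GAAA, 2 bases of any kind and GAAA. The windows are again the 250 bases before the start in RefSeq's GRCm38.p6 annotation, on the strand of the gene: Ifit1 at chr19:34640639-34640888, plus strand, Ifit3 at chr19:34583279-34583528, plus strand, Rsad2 at chr12:26456453-26456702, minus strand, and Gbp5 at chr3:142496684-142496933, plus strand.
Ifit1: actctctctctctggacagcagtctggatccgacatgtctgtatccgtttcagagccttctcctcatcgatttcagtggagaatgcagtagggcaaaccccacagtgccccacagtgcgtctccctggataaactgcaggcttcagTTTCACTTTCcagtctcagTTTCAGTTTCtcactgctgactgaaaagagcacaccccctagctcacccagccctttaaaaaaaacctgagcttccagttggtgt
Ifit3: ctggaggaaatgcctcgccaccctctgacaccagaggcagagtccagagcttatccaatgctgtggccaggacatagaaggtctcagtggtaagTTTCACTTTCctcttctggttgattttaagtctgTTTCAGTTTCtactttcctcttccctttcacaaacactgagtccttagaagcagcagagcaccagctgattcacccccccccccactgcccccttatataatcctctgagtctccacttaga
Rsad2: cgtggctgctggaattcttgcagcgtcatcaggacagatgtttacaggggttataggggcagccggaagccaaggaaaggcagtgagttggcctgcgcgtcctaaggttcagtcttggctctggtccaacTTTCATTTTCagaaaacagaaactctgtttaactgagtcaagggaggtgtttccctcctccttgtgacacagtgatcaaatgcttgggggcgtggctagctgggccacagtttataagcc
Gbp5: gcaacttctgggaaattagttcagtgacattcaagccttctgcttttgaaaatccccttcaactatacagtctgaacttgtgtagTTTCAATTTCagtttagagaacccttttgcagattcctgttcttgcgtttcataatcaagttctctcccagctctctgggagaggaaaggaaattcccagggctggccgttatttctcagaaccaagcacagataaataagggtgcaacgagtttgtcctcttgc
Ifit1 and Ifit3 held 2 matches each, and Rsad2 and Gbp5 held 1 each. Among 32 windows of 28 genes of the list 14 (43.8%) held the motif, against 2.98% of all promoter windows.

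Irf7, the transcription factor that amplifies interferon production, grew. It was 21.9 and 21.8 CPM in sham and 30 and 29.7 CPM in irradiated libraries at 6 hours, and 19.9 and 20.7 CPM against 81 and 79 CPM at 28 days. The groups did not overlap at either time, and the effect went from 0.45 ± 0.10 through 0.55 ± 0.11 at 7 days to 1.98 ± 0.10 (3.94-fold, adjusted p = 1.57e-07), with an interaction of 1.53 ± 0.15 (adjusted p = 1.64e-05). Ifit3, an antiviral gene, was 43.2 and 51.3 CPM against 41.6 and 45.9 CPM at 6 hours, where the groups overlapped, and 29.6 and 46 CPM against 131 and 109 CPM at 28 days. It appeared, with effects of -0.11 ± 0.20 and 1.65 ± 0.20 and an interaction of 1.77 ± 0.28 (adjusted p = 0.00091). Rsad2, which encodes viperin, was 4.59 and 6.4 CPM against 3.93 and 7.44 CPM at 6 hours and 3.91 and 7.53 CPM against 23.8 and 23.5 CPM at 28 days. Its interaction was 1.99 ± 0.45 (adjusted p = 0.0127), lost without the first sham library of 28 days (adjusted p = 0.0549) or the second of 6 hours (adjusted p = 0.0636). Usp18, a brake on interferon signalling, appeared with effects of 0.17 ± 0.12 and 1.5 ± 0.12.

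Oas2, an activator of viral RNA decay, and Bst2, which encodes tetherin, grew, with interactions of 1.45 ± 0.32 (adjusted p = 0.01) and 0.74 ± 0.11 (adjusted p = 0.000703). In the fit of all 36 libraries Bst2 was called neither at 6 hours nor in the interaction (adjusted p = 0.354 and 0.317). Ifit1 grew from 0.68 ± 0.18 to 1.65 ± 0.18, but its interaction (adjusted p = 0.0262) was lost in each of 6 fits that left out 1 library, with the first sham library of 28 days giving an adjusted p of 0.125. The interaction of Oas2 was lost without the second sham library of 6 hours (adjusted p = 0.062), and its 6 hour call, on which the growth rests, without the first sham (adjusted p = 0.217) or second irradiated library of 6 hours (adjusted p = 0.249). The 6 hour calls of Ifit1, H2-D1 and C4b were likewise lost without the second irradiated library of 6 hours (adjusted p = 0.0855, 0.118 and 0.0607). H2-D1, an MHC class I gene with near-identical copies that share reads, so that its value is uncertain, and the complement gene C4b had small interactions of 0.39 ± 0.11 and 0.45 ± 0.09; the former was lost in 5 fits that left out 1 library, with adjusted p up to 0.131. Isg15 and the chemokine gene Cxcl10 were called at both times and not in the interaction: Isg15 had 1.1 ± 0.19 and 1.69 ± 0.18 (interaction adjusted p = 0.172) and Cxcl10 1.2 ± 0.21 and 1.89 ± 0.20 (interaction adjusted p = 0.158).

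A few interferon-stimulated genes went other ways. Cmpk2, a nucleotide kinase gene beside Rsad2, and Ifit2 reversed: Cmpk2 had -0.35 ± 0.11 and 0.96 ± 0.10 and Ifit2 -0.44 ± 0.08 and 0.45 ± 0.08. The 6 hour call of Cmpk2 was lost without any one of the 4 libraries of that time (adjusted p up to 0.197), and the 28 day call of Ifit2 without the first sham library of 28 days (adjusted p = 0.0995). The guanylate-binding protein gene Gbp5 was 16.9 and 22.6 CPM against 163 and 158 CPM at 6 hours and 16.6 and 18.3 CPM against 29.1 and 27.4 CPM at 28 days. Its effect of 3.02 ± 0.11 (8.13-fold) fell to 0.69 ± 0.11, with an interaction of -2.33 ± 0.16 (adjusted p = 8.33e-07). Gbp2, of the same family, went from 1.75 ± 0.09 to 0.38 ± 0.08 (interaction -1.37 ± 0.12). The 28 day calls of both were lost without the first sham library of 28 days (adjusted p = 0.0529 for Gbp5 and 0.247 for Gbp2).

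A part of the matrix genes was called, mostly lower at 6 hours and higher at 28 days. Of 34 listed genes of fibrillar collagens and interstitial matrix, 1 rose and 15 fell at 6 hours, 2 rose at 7 days and 8 rose at 28 days, with medians of -0.23, 0.11 and 0.19. The interaction was higher for 21 and lower for none, with a median of 0.39. The 21 became 13 without the second irradiated library of 6 hours or the second sham library of 28 days, 14 without the second irradiated library of 28 days, and 0 in a fit of all 36 libraries. At 6 hours the 15 became 9 without the second irradiated library, and at 28 days the 8 became 1 without the second sham library; both counts were 0 in the fit of all 36 libraries, as was the 1 that rose at 6 hours. Sorted by class, 12 faded, 6 appeared and 1 reversed. The gene that reversed was Col1a1, the main chain of type I collagen, with 5216 and 5726 CPM in sham and 4504 and 4695 CPM in irradiated libraries at 6 hours and 5217 and 5018 CPM against 5867 and 6538 CPM at 28 days. The groups did not overlap at either time, but both effects were small, -0.25 ± 0.07 (adjusted p = 0.0184) and 0.28 ± 0.07 (adjusted p = 0.0467). The interaction was 0.53 ± 0.10 (adjusted p = 0.00362). The 6 hour call was lost without the first or second irradiated or the second sham library of 6 hours (adjusted p = 0.109, 0.0563 and 0.124), and the 28 day call was lost without any one of 5 libraries, with an adjusted p of 0.288 without the second sham library of 28 days.

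Col3a1, of type III collagen, was 8110 and 10415 CPM against 6638 and 7036 CPM at 6 hours and 10210 and 10118 CPM against 12123 and 12356 CPM at 28 days. It fell at 6 hours (-0.44 ± 0.09, adjusted p = 0.00185) and stood above sham at 28 days without a call (0.27 ± 0.09, adjusted p = 0.132), with an interaction of 0.71 ± 0.12 (adjusted p = 0.00178). Postn, the periostin gene of activated fibroblasts, was 497 and 589 CPM against 457 and 416 CPM at 6 hours and 540 and 500 CPM against 785 and 794 CPM at 28 days. It appeared, with 0.60 ± 0.11 at 28 days and an interaction of 0.92 ± 0.16 (adjusted p = 0.00187); the 28 day call was lost without the second sham library of that time (adjusted p = 0.104). Tnc, the wound matrix gene tenascin C, was 19.9 and 22.1 CPM against 16.6 and 18.4 CPM and then 22.9 and 18.3 CPM against 38.5 and 43.9 CPM. It rose at 28 days by 1.01 ± 0.15 (2.01-fold) and had an interaction of 1.27 ± 0.21 (adjusted p = 0.00138).

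Among contractile genes of myofibroblasts, the fibroblasts that pull on scar tissue, 7 of 14 lost an early decrease by the test of the interaction. Of the 14 listed, 9 fell at 6 hours and 1 rose at 28 days, with medians of -0.41 and 0.15, and the other 7 had no called interaction. The 7 became 3 without the second sham library of 28 days and 1 in a fit of all 36 libraries, and the 9 became 5 without the second irradiated library of 6 hours and 2 in the fit of all 36. Acta2, smooth muscle actin, was 364 and 326 CPM against 207 and 178 CPM at 6 hours and 324 and 330 CPM against 392 and 348 CPM at 28 days. Its effect was -0.84 ± 0.09 and then 0.18 ± 0.09 (adjusted p = 0.395), with an interaction of 1.02 ± 0.13 (adjusted p = 0.000133). Myh11, smooth muscle myosin, had an interaction of 0.73 ± 0.16 (adjusted p = 0.0107), lost without the second sham library of 28 days (adjusted p = 0.0526). Summed markers of pericytes and smooth muscle were 1452 and 1391 CPM in irradiated libraries of 6 hours and 1736 to 1891 CPM in the other 6. That list itself holds the contractile genes Acta2, Myh11, Tagln and Cnn1, so the sum is not separate from them. Of its 11 genes, 6 fell and 1 rose at 6 hours. The pericyte gene Rgs5 overlapped there, with 124 and 133 CPM in sham and 120 and 164 CPM in irradiated libraries. The part of such cells in these values was not tested. Of 28 genes of the TGF-beta pathway 2 had a positive interaction and none was called at 28 days; Tgfb2 had effects of -0.09 ± 0.06 and 0.02 ± 0.06.

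**Figure D4:**
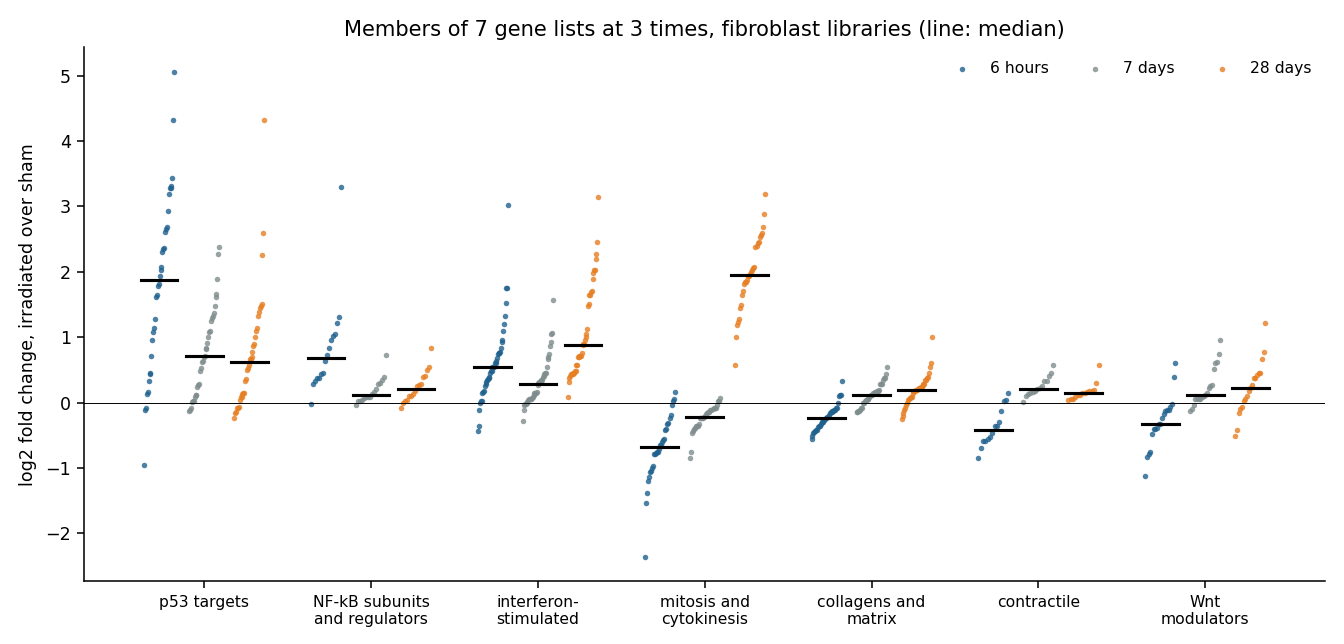
Log2 fold change of irradiated over sham at 6 hours, 7 days and 28 days for the members of 7 gene lists (points, 1 gene each; line, median). The p53 median falls from 1.87 to 0.61, the mitosis median turns from -0.68 to 1.96, and the interferon median is 0.55, 0.28 and 0.89.

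Apart from the mitosis genes, the genes that were lower at 6 hours and higher at 28 days included 3 of the listed Wnt modulators. Wisp2, a matricellular gene of the CCN family, was 103 and 106 CPM in sham and 47.1 and 49.1 CPM in irradiated libraries at 6 hours. It was 68.6 and 68.1 CPM against 99.6 and 108 CPM at 7 days and 72.2 and 67.5 CPM against 94.8 and 97.1 CPM at 28 days. The groups did not overlap at any time, and the direction had turned by 7 days. Its effects were -1.12 ± 0.06 (adjusted p = 1.22e-08), 0.60 ± 0.06 (adjusted p = 6.81e-05) and 0.46 ± 0.06 (adjusted p = 0.000446), with an interaction of 1.58 ± 0.09 (adjusted p = 2.41e-07). Part of this lay in the sham libraries, which were lower at 28 days than at 6 hours (-0.58 ± 0.06, adjusted p = 9.03e-05). Apod, a secreted lipid carrier, was 54.4 and 49.2 CPM against 39.9 and 41.5 CPM at 6 hours, 49.3 and 45.8 CPM against 36.1 and 37.9 CPM at 7 days and 55 and 56.1 CPM against 133 and 131 CPM at 28 days. Its sham level was level across the times, and the turn came after 7 days: -0.35 ± 0.07, -0.36 ± 0.07 (adjusted p = 0.0131) and 1.25 ± 0.07 (2.38-fold, adjusted p = 1.57e-07). Wisp2 and Apod kept the calls at 6 hours, at 28 days and in the interaction with any one of the 8 libraries left out. In the fit of all 36 libraries, however, Wisp2 was not called at 28 days. Apod was not called at 6 hours in that fit (adjusted p = 0.29), so neither gene reversed there.

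Of 19 listed Wnt modulators, 1 rose and 9 fell at 6 hours, 3 rose and 1 fell at 28 days, and 7 had a positive and 1 a negative interaction, with medians of -0.32, 0.22 and 0.52. The 3 became 1 without either sham or the second irradiated library of 28 days, and in the fit of all 36 libraries 3 fell at 6 hours, none was called at 28 days and 2 had a positive interaction. Frzb and Sfrp2, secreted Wnt antagonists, reversed with small effects, -0.39 ± 0.10 and 0.45 ± 0.10 for Frzb and -0.41 ± 0.09 and 0.42 ± 0.09 for Sfrp2. Both 28 day calls were lost without any one of 3 of the 4 libraries of that time, with adjusted p up to 0.154 for Frzb and 0.134 for Sfrp2, and the 6 hour call of Frzb was lost without the first sham library of 6 hours (adjusted p = 0.102). Svep1, a large adhesion and matrix gene, had -0.50 ± 0.09 and 0.48 ± 0.09, the latter lost without the first sham library of 28 days (adjusted p = 0.0785). Igf1, the growth factor, fell at 6 hours (-0.84 ± 0.10) and did not differ detectably at 28 days (0.01 ± 0.10), with an interaction of 0.85 ± 0.14 (adjusted p = 0.00151); its sham level was higher at 28 days than at 6 hours (0.44 ± 0.10).

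The 6 genes that were higher at 6 hours and lower at 28 days were Gfpt2, Pgf, Stmn4, Fgf18, Cd55 and Ackr3. Gfpt2, the entry enzyme of the hexosamine pathway, was 685 and 619 CPM against 1168 and 1095 CPM at 6 hours and 709 and 679 CPM against 557 and 548 CPM at 28 days. Its irradiated libraries lay above both sham libraries at 6 hours and below them at 28 days, and the effects were 0.80 ± 0.08 and -0.33 ± 0.08 (adjusted p = 0.0481), with an interaction of -1.12 ± 0.12 (adjusted p = 3.7e-05). Pgf, a growth factor of the VEGF family, was 129 and 104 CPM against 147 and 150 CPM at 6 hours, 88.7 and 87.1 CPM against 65.9 and 62.3 CPM at 7 days and 93.7 and 83.1 CPM against 53.5 and 53.2 CPM at 28 days. It was lower than sham at both later times, with effects of 0.35 ± 0.09, -0.46 ± 0.09 (adjusted p = 0.0172) and -0.73 ± 0.09 (adjusted p = 0.000231). Its sham level was also lower at 28 days than at 6 hours (-0.40 ± 0.09). Stmn4, a stathmin, had 0.82 ± 0.12 and -0.59 ± 0.13, and Fgf18, a fibroblast growth factor, 0.49 ± 0.08 and -0.45 ± 0.08. Cd55, which protects cells from complement, had 0.31 ± 0.07 and -0.31 ± 0.07, and Ackr3, a scavenging chemokine receptor, 0.19 ± 0.06 and -0.29 ± 0.06. Each of the 6 lost a call at 6 hours or 28 days when some library was left out: without the first sham library of 28 days the adjusted p at 28 days was 0.298 for Gfpt2, 0.296 for Stmn4, 0.0817 for Fgf18, 0.255 for Cd55 and 0.137 for Ackr3, and without the second sham library of 6 hours that of Pgf at 6 hours was 0.102. The interactions of all 6 kept their call in these fits. In the fit of all 36 libraries those of Gfpt2, Cd55 and Ackr3 were lost (adjusted p = 0.0992, 0.103 and 0.222).

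Decreases that appeared or grew late were few. Pi16, a marker of adventitial fibroblasts, was 1887 and 1611 CPM against 1713 and 1642 CPM at 6 hours, where the groups overlapped, and 1950 and 1790 CPM against 1274 and 1223 CPM at 28 days. Its effect was -0.06 ± 0.07, then -0.32 ± 0.07 at 7 days and -0.58 ± 0.07 at 28 days (adjusted p = 0.000303), with an interaction of -0.52 ± 0.10 (adjusted p = 0.00559). Calcrl, a receptor for adrenomedullin and CGRP, was 96.1 and 84.7 CPM against 97.2 and 88.8 CPM at 6 hours and 115 and 121 CPM against 81.9 and 89.7 CPM at 28 days. Its irradiated level barely moved between the times while its sham level was higher at 28 days (0.38 ± 0.07, adjusted p = 0.00982), and its interaction was -0.50 ± 0.11 (adjusted p = 0.00845). Tmem100, a membrane protein gene, had an interaction of -0.54 ± 0.12 (adjusted p = 0.0133), lost without the first sham library of 28 days (adjusted p = 0.0746). The 2 decreases that grew were those of Cd83 and Angptl1. Cd83, an immune surface protein, went from -0.49 ± 0.08 to -0.92 ± 0.08, and Angptl1, a secreted angiopoietin-like protein, from -0.33 ± 0.08 to -0.74 ± 0.08. In both the sham level was higher at 28 days (0.49 ± 0.07 and 0.48 ± 0.08), and both interactions were lost in fits that left out 1 library (without the first sham library of 28 days, adjusted p = 0.0608 for Cd83 and 0.0981 for Angptl1). Pdgfra, the PDGF receptor that marks cardiac fibroblasts, was lower after radiation at both times, 1024 and 1045 CPM against 656 and 614 CPM and then 1090 and 1145 CPM against 772 and 858 CPM. Its interaction of 0.25 ± 0.09 was not called (adjusted p = 0.102).

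For some genes that faded after an early decrease, the sham level moved between the times and the irradiated level hardly did. Between sham libraries 720 genes (4.8%) differed between 28 days and 6 hours, 314 higher (2.09%) and 406 lower (2.71%); the total was 180 to 788 when 1 library was left out. Among the 582 genes that were lower at 6 hours and not called at 28 days, the sham level was called higher at 28 days in 26 and lower in 70. These genes were chosen with the same sham libraries of 6 hours that enter the sham change, so the choice favours lower sham levels at 28 days, and the counts support nothing further. Tat, a tyrosine-degrading enzyme, was 57.1 and 52.9 CPM against 19 and 21.3 CPM at 6 hours and 21.4 and 23.8 CPM against 23.3 and 22 CPM at 28 days. Irradiated libraries stood at 19 to 23.3 CPM at both times, so the interaction of 1.45 ± 0.20 (adjusted p = 0.000301) came with a sham change of -1.28 ± 0.14 (adjusted p = 9.57e-05). Hlf, a clock-controlled transcription factor, was 140 and 140 CPM against 56.6 and 48.8 CPM at 6 hours and 52 and 54.9 CPM against 39.4 and 44 CPM at 28 days. Its sham change was -1.39 ± 0.08 and its interaction 1.05 ± 0.12. Among 15 core clock genes the sham level was called higher in 4 and lower in 8, while 1 interaction was called; among 6 clock output factors 1 was higher and 5 lower in sham, with a median of -1.32, and 3 interactions were called. Sham levels of Dbp, Arntl and Per2 changed by -2.06 ± 0.12, 2.16 ± 0.11 and -0.99 ± 0.08, with interactions of 0.63 ± 0.17, -0.59 ± 0.15 and 0.18 ± 0.11, and the interactions of Dbp and Arntl were lost without the second sham library of 28 days (adjusted p = 0.121 and 0.101). The hour of harvest is not given, so time after treatment and hour of day cannot be told apart for these genes.

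The sham level of Inmt, a methyltransferase gene, hardly moved between the times (-0.13 ± 0.09, adjusted p = 0.505). Inmt was 102 and 98.2 CPM against 35.2 and 29.8 CPM at 6 hours and 91.8 and 91.9 CPM against 57.3 and 57.1 CPM at 28 days. The groups did not overlap at either time, and the effect shrank from -1.62 ± 0.10 to -0.68 ± 0.10 (interaction 0.94 ± 0.14, adjusted p = 0.000558). Npr3, the clearance receptor of natriuretic peptides, went from -1.38 ± 0.16 to 0.20 ± 0.15 (interaction 1.58 ± 0.22, adjusted p = 0.00037). Its sham libraries held 92.5 and 102 CPM at 6 hours and 63.9 and 70.5 CPM at 28 days, a change of -0.53 ± 0.15 that was not called (adjusted p = 0.0639). Cldn1, a tight junction gene, went from -1.53 ± 0.20 to 0.66 ± 0.20, the latter not called (adjusted p = 0.102), while its sham level fell by 0.95 on the log2 scale between the times.

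The same interaction was computed for the endothelial libraries, the other non-muscle cell type of the series, and the difference of the 2 interactions was tested in a fit of the 24 fibroblast and endothelial libraries. The endothelial interaction was called for 2413 of 15674 genes (15.4%), and it differed between fibroblast and endothelial libraries for 995 genes (6.35%), 484 higher in fibroblasts (3.09%) and 511 lower (3.26%). The second irradiated fibroblast library of 6 hours held more Cdh5 and Pecam1 than the other fibroblast libraries of 6 hours and 28 days. Its part in these differences was not tested. All 30 mitosis genes had a positive endothelial interaction (7.94% of all genes did), with a median of 2.82, and none passed the test of the difference. Of the 34 p53 targets 23 had a negative endothelial interaction (7.45% of all genes did), with a median of -0.92, and 6 differed between the cell types. Of the 92 genes that appeared as higher in fibroblasts, 61 were called higher and 2 lower in the endothelial interaction, and 6 differed; of the 36 that turned from lower to higher, 24 were called higher and 2 lower, and 7 differed. Of the 592 that were higher at 6 hours and not called at 28 days in fibroblasts, 166 were called lower and 34 higher in the endothelial interaction, and 155 differed.

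Several lists held members that differed between the cell types. Of 21 glycolysis and hypoxia genes 2 had a higher and 8 a lower interaction in fibroblasts, with medians of 0.04 in fibroblasts and 0.41 in endothelial libraries. Of 15 core clock genes 4 were higher and 1 lower, and of 16 antioxidant genes 4 were lower. Of 20 inflammatory cytokines and chemokines 2 were higher and 2 lower, and of 19 acute phase and complement genes 1 was higher and 2 lower. Of 16 NF-kB genes 6 had a lower interaction in fibroblasts, where the median was -0.48 in this fit, against 0.13 in endothelial libraries. Of 34 matrix genes 6 had a higher and 2 a lower interaction in fibroblasts, with medians of 0.42 and -0.11. Of 25 DNA replication genes 16 had a positive endothelial interaction, and 4 were lower in fibroblasts. Among the 8 genes with the smallest p of this difference, Rnd1 had a fibroblast interaction of -4.73 and an endothelial one of -0.38, a difference of -4.35 ± 0.42 (adjusted p = 4.92e-05). Neurl3 had -2.96 and 1.25 (difference -4.21 ± 0.43), Gbp5 -2.31 and 0.01 (difference -2.31 ± 0.26) and Ctps, a cytidine nucleotide synthase gene, -1.63 and -0.09 (difference -1.54 ± 0.18). Pgf moved in opposite directions, -1.05 in fibroblasts and 0.92 in endothelial libraries (difference -1.96 ± 0.21, adjusted p = 7.57e-05), and so did Fbxo32, a muscle-type ubiquitin ligase gene, 0.91 and -0.76 (difference 1.66 ± 0.18). For Acot7, an acyl-CoA thioesterase gene, the interaction was 1.39 in endothelial libraries and 0.10 in fibroblasts, and for Gfra2, a receptor for neurturin, -2.35 and 0.41. In the fit of fibroblast libraries alone Gfra2 rose at 28 days (0.62 ± 0.08, adjusted p = 0.000372) with an interaction of 0.38 ± 0.11 (adjusted p = 0.0473), which was lost in 7 of the 8 fits that left out 1 library (adjusted p up to 0.146, without the second sham library of 6 hours).

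**Figure D5:**
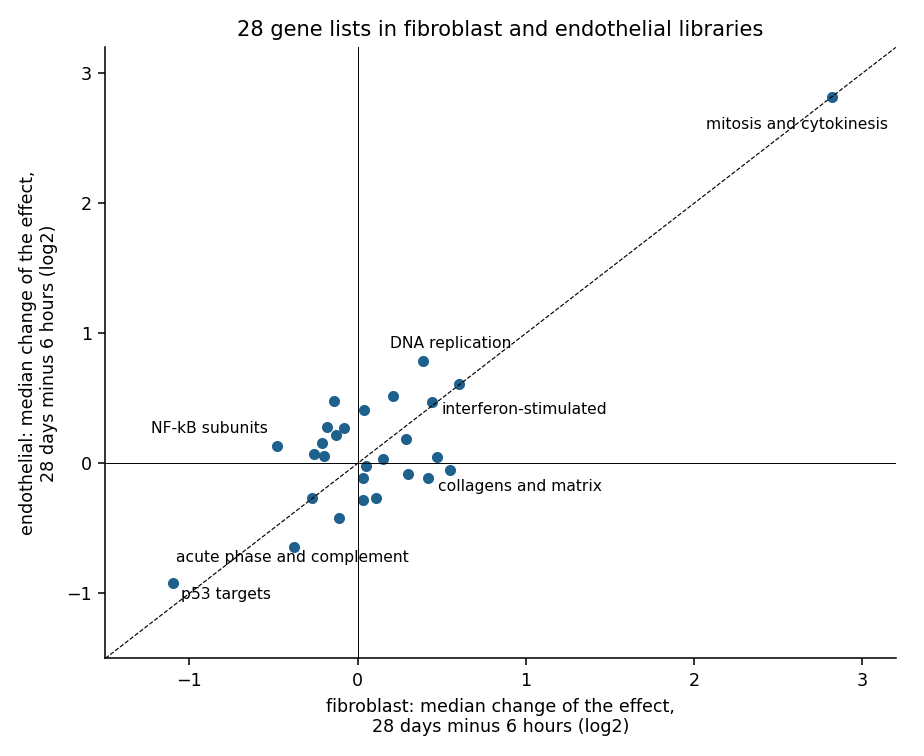
Median interaction (28 days minus 6 hours) of 28 gene lists in fibroblast libraries (horizontal axis) and endothelial libraries (vertical axis), both as log2 fold changes. The mitosis list stands at 2.82 in both, the p53 list at -1.1 and -0.92, and the NF-kB list at -0.48 and 0.13.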

How the data were processed

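The deposited files hold 1 library each. The authors' read counts per RefSeq transcript are whole numbers and were used as deposited; a further column, named TPM per the file headers, holds RPKM, since it differs from RPKM computed from the counts by at most 1.8e-12, and these deposited RPKM values served 1 alternative. Per the labels' protocols, RNeasy columns gave the RNA and a SMARTer kit for mRNA the libraries. The build is GRCm38 (mm10) per the submitters' processing notes; the aligner, the counting tool and the use of strand were not given in the sources used here. Another 30 read columns, which sit in 26 files, stayed out.

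The tables list 33068 transcripts under 24061 names, 4914 of which have several; per name, the 1 with most reads summed over the 36 libraries was kept. Tests used edgeR 4.0.16 (R 4.3.3) on the 12 fibroblast libraries as group means with TMM scaling, filterByExpr (minimum count 10, minimum total 15) and the quasi-likelihood test, with Benjamini-Hochberg adjustment over all genes and a threshold of 0.05. The common biological coefficient of variation was 0.0677, on 6 residual degrees of freedom. Errors are ± SE of the fitted contrast. Summed marker levels are CPM of all reads, without TMM scaling. The difference from endothelial libraries came from a fit of 24 libraries. Promoter windows came from RefSeq (GRCm38.p6) and were searched for 8 motifs on both strands in Python 3.11.15. In simulated data with the measured spread for the interaction (14827 genes), 71% of 100 genes with a log2 effect of 1 and 89% of 100 with an effect of 2 were recovered, with 9 false calls among 14628 unchanged genes. Those counts were drawn independently from the kind of model that was fitted, with effects at 28 days alone. The false calls therefore do not measure errors from shifts of single libraries.

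The members and the 28 gene lists were chosen with earlier results of these data known. Genes were named by rule: per class and direction up to 8 with at least 5 CPM and the largest interaction, per list up to 4 members with the smallest p, a fixed set of 28 genes (some are not reported here), and the 8 genes with the smallest p between cell types. Alternatives were RLE size factors, DESeq2 1.42.0, limma 3.58.1 on log2(RPKM + 1), other filters, counts summed over transcripts, other sets of libraries, replicate blocks and each library left out. Same-numbered libraries deviated together weakly at most (correlations of -0.022 to 0.112), and the main fit did not pair them. Such a check cannot exclude pairing or a shared batch.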

Additional observations from a re-analysis of the deposited data

Results flagged for a closer look

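The radiation effect differed between 28 days and 6 hours for 1525 genes in fibroblast libraries, by the test of the interaction. That change between the times differed between fibroblast and endothelial libraries for 995 genes, by the test of the difference itself. Of these, 8 genes had the smallest p. The difference was -4.35 for Rnd1, -4.21 for Neurl3, -2.31 for Gbp5, -1.96 for Pgf, -1.54 for Ctps and -1.29 for Acot7, lower in fibroblasts. It was 2.77 for Gfra2 and 1.66 for Fbxo32, higher in fibroblasts. In Rnd1, Neurl3, Gbp5 and Ctps the fibroblast effect at 6 hours was 5.25, 3.13, 3.0 and 1.82 and the endothelial effect 0.95, -0.26, -0.17 and 0.84. In Gfra2 and Acot7 the endothelial effect at 6 hours was 2.22 and -0.45 and the fibroblast effect 0.21 and -0.01.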

How the results depend on the processing

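The interaction was called for 385 (all 36 libraries in 1 fit) to 2280 genes (no filter beyond 1 read), and for 868 to 1701 when 1 library was left out, beside 1525. With DESeq2 1436 were called. No shared call changed sign in any fit, but the fits reuse the same libraries, so this is no separate support. The fit of all 36 libraries gave 1310 calls at 6 hours, 188 at 28 days, 51 at 7 days and 93 between sham groups, with 8 reversals, 297 faded, 63 appeared and 0 grown genes. It kept 381 of the 1525 interactions (25%). Among those lost were Col3a1, Calcrl, Pi16, Igf1, Tnfaip3 and Inmt (adjusted p = 0.471, 0.42, 0.416, 0.236, 0.153 and 0.125). Without a filter beyond 1 read there were 929 calls at 28 days, 843 at 7 days and 1444 between sham groups, with 117 reversals, 218 appeared and 29 grown. Limma on log2(RPKM + 1) gave 168 calls at 7 days, 26 reversals and 6 grown, and a minimum mean of 5 CPM 63 appeared. Leaving out 1 library gave 2198 to 3776 calls at 6 hours, 229 to 534 at 28 days, 204 to 319 at 7 days and 180 to 788 between sham groups. It gave 21 to 49 reversed, 752 to 1300 faded, 50 to 148 appeared and 3 to 12 grown genes. With the replicate block there were 1764 interactions, against 1525 without it, and 432 calls at 7 days; with the replicate block within time, 439 between sham groups. The difference from endothelial libraries was called for 909 to 1481 genes. The causes of these differences were not tested. Of 86 named genes over 1545 fits of a gene, 91 lost and 11 gained the call of the interaction, and none changed sign. With 2 libraries a group, small effects near the threshold depend on single libraries, and low levels such as that of Ccnb1 rest on 6 to 183 reads.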
